A study of Mus musculus with 6 samples.

Results

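Chemokines and inflammatory cytokines, the secreted proteins that call leukocytes into a tissue and activate them there, were examined in sorted pancreas cells of mice that model early, preinvasive pancreatic cancer and either lack or keep p120 catenin. A list of 42 genes was taken from the series: chemokines of the CXC, CC and CX3C classes, colony-stimulating factors, interleukins and members of the TNF family. A gene was measured where a row of the value table named that symbol alone, and the row with the highest mean over all arrays stood for it. By this rule 40 of the 42 genes were measured, among 20259 genes in all. Cxcl3 and Ccl6 were named only in rows shared with a neighbouring gene and were not analysed here as single genes.

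The p120 knockout group carried the genotype KCiMist1G; p120f/f, and the p120 wild-type group the genotype KCiMist1G; p120wt/wt, each with 3 arrays numbered as biological replicates. Both groups shared the KCiMist1G background, received tamoxifen at 7 to 9 weeks of age to switch on Cre recombinase, and were taken 2 weeks later. Pancreases were digested, and RNA came from cells that passed a FACS gate for GFP. The labels do not spell out the single alleles of KCiMist1G, and Mist1 is, as background, a transcription factor of pancreatic acinar cells. Whether 1 animal or several gave each replicate is not stated, so p-values cover only the spread among these samples. All values are RMA log2 expression values, on which a difference of 1 is a doubling. Small signals are compressed on this scale, and a row's signal also depends on its probes, so levels are not compared between genes.

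Chemokines bind G protein-coupled receptors on leukocytes and lay down the gradients along which these cells move. CXC chemokines with a Glu-Leu-Arg motif act mainly on neutrophils through Cxcr2, the interferon-induced ligands Cxcl9, Cxcl10 and Cxcl11 act on T and NK cells through Cxcr3, and many CC chemokines act on monocytes, eosinophils or lymphocytes. Most inflammatory members are transcribed through NF-kB, and several are mainly products of macrophages. In the pancreas, acinar cells and fibroblasts can make some of them after injury, while Tnf, Il1b, Ccl3 and Ccl4 are best known as products of myeloid cells.

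Ctnnd1, which encodes p120 catenin, measured 5.61, 6.61 and 6.38 on the knockout arrays, with 5.87, 6.81 and 6.44 in wild type. The single Ctnnd1 row showed no loss of the transcript, and it may read parts outside the deletion, so the directions below rest on the labels alone. Acinar markers were bright on every array: Cela1, the elastase gene, ranged from 13.59 to 13.85 in knockout and from 13.76 to 13.81 in wild type. Some markers of other cells had bright rows as well. Cd79a, a B cell marker, ranged from 9.26 to 10.32 in knockout and from 9.69 to 10.02 in wild type. Others were dim, such as the mast cell marker Fcer1a, with 3.01 to 3.11 in knockout and 3.08 to 3.21 in wild type. Knockout array 1 stood apart from knockout arrays 2 and 3 on the first principal component (-38.1 against 28.4 and 37.1). The wild-type arrays lay between them, at -8.3, -4.2 and -14.9, so knockout arrays 2 and 3 stood apart from wild type as well. Values without knockout array 1 are given below for many of the members and lists.

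To show what the start sites of these genes look like, the 120 bases before the start are printed for Cxcl2, Cxcl1, Ccl9 and Il6, which hold a match to an NF-kB-type motif, and for Tnf, the member with the smallest p-value. Sequences are RefSeq's on build GRCm38.p6, read 5′ to 3′ on the gene's strand, and capitals mark GGGNNTTTC on either strand.
Cxcl2 (chr5:90903779-90903898, + strand): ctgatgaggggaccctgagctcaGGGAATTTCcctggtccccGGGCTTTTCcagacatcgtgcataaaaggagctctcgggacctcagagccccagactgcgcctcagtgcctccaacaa
Cxcl1 (chr5:90891125-90891244, + strand): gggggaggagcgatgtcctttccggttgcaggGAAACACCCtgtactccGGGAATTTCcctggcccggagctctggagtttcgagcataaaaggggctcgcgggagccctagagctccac
Ccl9 (chr11:83578637-83578756, - strand): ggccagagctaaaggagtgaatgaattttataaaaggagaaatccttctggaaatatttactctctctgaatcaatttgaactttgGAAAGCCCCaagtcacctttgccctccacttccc
Il6 (chr5:30012994-30013113, + strand): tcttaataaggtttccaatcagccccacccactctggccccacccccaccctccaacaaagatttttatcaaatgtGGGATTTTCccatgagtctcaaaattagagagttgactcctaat
Tnf (chr17:35202008-35202127, - strand): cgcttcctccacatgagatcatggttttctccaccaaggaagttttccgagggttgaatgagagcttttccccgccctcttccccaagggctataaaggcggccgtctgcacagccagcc
Promoter sequences were matched for 29 of the 42 listed genes, with 32 start sites. In the 250 bases before the start, GGGNNTTTC was found on either strand at 8 of these 32 start sites, those of Ccl20, Ccl9, Csf1, Cxcl1, Cxcl2, Cxcl3, Cxcl9 and Il6, and at 3.72% of 32851 start sites over all genes. Cxcl1 and Cxcl2 each held 2 matches. The motif was shortened after its matches had been seen, so these shares are a description and not a test. A match describes letters only, and a window without one, such as that of Tnf, says nothing about the factor.

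No member passed the threshold between the groups, and none of the 20259 genes did. With limma's adjusted p under 0.05, 0 of 40 members were called higher (background 0%) and 0 were called lower (background 0%), and the smallest adjusted p among members was 0.907, a value that several members shared. At an unadjusted p under 0.05 there were 0 members higher, against 2.31% of all genes, and 2 members lower, Tnf and Ccl11, against 1.19% of all genes. The 3 knockout arrays lay above all wild-type arrays for 1 member, Il34 (background 6.21%), and below all of them for 2 members, again Tnf and Ccl11 (background 2.47%). The differences were below 0 for 22 of 40 members, against 38.3% of all genes, with a median of -0.07 over members and 0.05 over all genes. Without wild-type array 2 the median over members was 0.05, with 18 of 40 below 0. The plot of members by array shows where these differences came from.

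**Figure D1:**
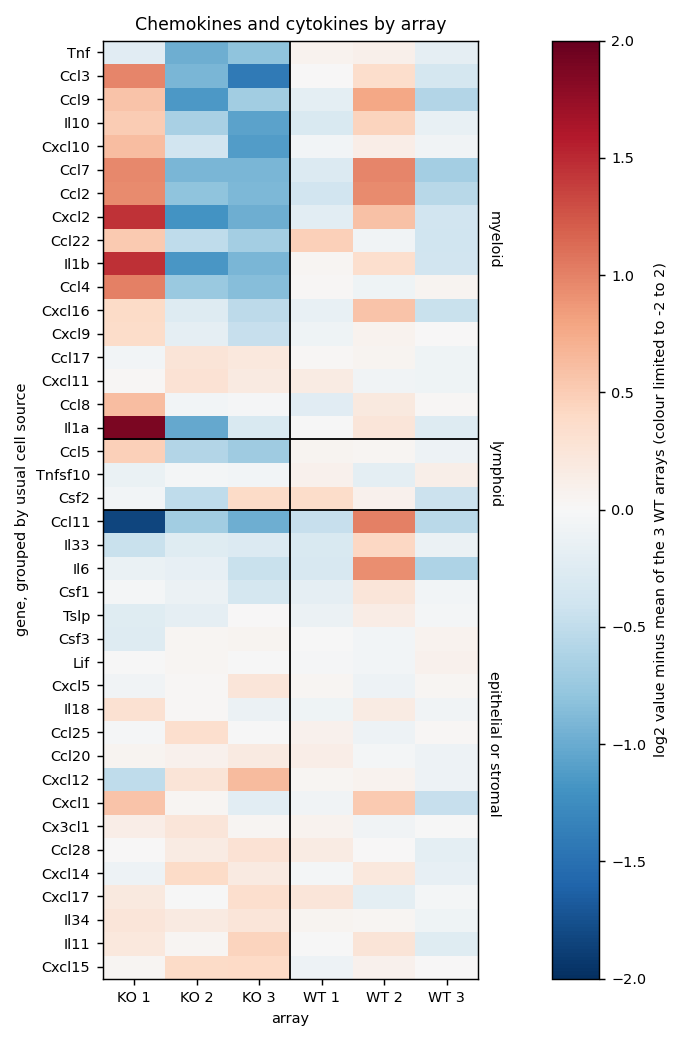
Log2 value of each of the 40 measured chemokines and cytokines on each array (columns, knockout KO left of wild type WT) minus the mean of the 3 wild-type arrays, with genes (rows) grouped by usual cell source. Most myeloid-source genes are high on knockout array 1 and low on knockout arrays 2 and 3, and several are also high on wild-type array 2.

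Tnf, the founding cytokine of its family and a strong activator of NF-kB, was the member with the smallest p-value. It measured 7.92, 7.16 and 7.34 on the knockout arrays, against 8.21, 8.25 and 7.96 on the wild-type arrays. All knockout arrays lay below all wild-type arrays, although knockout array 1 came within a small step of wild-type array 3. Knockout averaged 7.47 ± 0.395 and wild type 8.14 ± 0.158 (SD, n = 3 each), a difference of -0.67 (SE 0.21, 95% confidence interval -1.16 to -0.18) or 0.629 times the wild-type level. The limma adjusted p was 0.907, and the exact two-sided permutation p was 0.1, the smallest that 3 arrays against 3 can give. Without knockout array 1 the difference was -0.89 (SE 0.13, limma adjusted p = 0.0509). With the macrophage marker mean of each array as a covariate it was -0.53 (SE 0.15, limma adjusted p = 0.999).

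Tnfsf10, which encodes the death ligand TRAIL, ranged from 6.17 to 6.27 in knockout and from 6.11 to 6.42 in wild type. Its groups overlapped, and the difference was -0.08 (SE 0.13). Dimmer rows of the same gene, which were not used, differed by 0.05 and 0.17.

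Ccl11, the eosinophil attractant eotaxin, which fibroblasts make, had the largest difference of any member. It measured 6.89, 8.04 and 7.75 on the knockout arrays, against 8.26, 9.74 and 8.19 on the wild-type arrays. The groups did not overlap, but wild-type array 2 stood well above the other wild-type arrays. Knockout averaged 7.56 ± 0.594 and wild type 8.73 ± 0.876 (SD, n = 3 each), and the difference was -1.17 (SE 0.46, 95% confidence interval -2.25 to -0.09, limma adjusted p = 0.907, exact permutation p = 0.1). Without wild-type array 2 the difference was -0.66, and without knockout array 1 it was -0.84.

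Fibroblast markers shared part of the pattern of Ccl11. Of 14 markers, all measured, 12 had a mean difference below 0 and 1 had an unadjusted p under 0.05, and the groups overlapped for each of them. The median difference was -0.40, and -0.10 without wild-type array 2. Their summed log2 values ran from 79.5 to 85.6 on the knockout arrays and from 82.1 to 95.4 on the wild-type arrays. The list mean was 6.81 on wild-type array 2, where the other wild-type arrays had 5.87 and 6.14, and it was 5.68 on knockout array 1, where Ccl11 also had its lowest value. On knockout arrays 2 and 3 the list mean was 6.11 and 5.95, within the wild-type range, although Ccl11 lay below every wild-type array there. With the fibroblast mean as a covariate the Ccl11 difference was -0.50 (SE 0.22, limma adjusted p = 0.836). This covariate was added after the data were seen, and the part of fibroblast content in the Ccl11 difference was not tested. In bulk RNA of this kind, fewer cells of a type and less RNA per cell cannot be told apart.

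The other inflammatory CC chemokines differed from Ccl11 in being higher on knockout array 1 than on knockout arrays 2 and 3. Ccl2, Ccl7 and Ccl9 were also high on wild-type array 2. Ccl3, a macrophage inflammatory protein, measured 10.34, 8.44 and 7.95 on the knockout arrays, against 9.36, 9.71 and 9.00 on the wild-type arrays. Knockout array 1 was the highest of all arrays and knockout arrays 2 and 3 were the lowest, so that the wild-type arrays lay between them. The difference was -0.45 (SE 0.57, 95% confidence interval -1.79 to 0.88), and -1.17 (SE 0.24, limma adjusted p = 0.0613) without knockout array 1. Ccl4, its close relative, measured 7.26, 5.50 and 5.40 on the knockout arrays, against 6.28, 6.17 and 6.30 on the wild-type arrays. It differed by -0.20 (SE 0.46), and by -0.80 (SE 0.10, limma adjusted p = 0.0509) without knockout array 1.

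Ccl2, the main monocyte attractant, measured 9.03, 7.28 and 7.18 on the knockout arrays, against 7.70, 9.03 and 7.52 on the wild-type arrays. Ccl7, a neighbouring chemokine that also binds Ccr2, measured 9.67, 7.80 and 7.80 on the knockout arrays, against 8.43, 9.68 and 8.03 on the wild-type arrays. Both genes were high on exactly 1 array of each group, knockout array 1 and wild-type array 2. Their differences were -0.25 (SE 0.57) for Ccl2 and -0.29 (SE 0.60) for Ccl7, and without wild-type array 2 they were 0.22 and 0.20. The direction of these chemokines therefore depended on single arrays.

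Ccl9, a chemokine of mouse macrophages and other myeloid cells, measured 8.32, 6.60 and 7.05 on the knockout arrays, against 7.56, 8.53 and 7.16 on the wild-type arrays. It was high on the same arrays as Ccl2, and its difference of -0.43 (SE 0.49) was -0.93 without knockout array 1, and leaving out wild-type array 2 gave -0.04. Ccl5, a product of T and NK cells, measured 8.59, 7.54 and 7.41 on the knockout arrays, against 8.18, 8.16 and 8.02 on the wild-type arrays. The wild-type arrays were close together, and the difference was -0.27 (SE 0.30), or -0.64 (SE 0.11, limma adjusted p = 0.0542) without knockout array 1. Ccl8 had a dim row and a difference of 0.18 (SE 0.21).

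**Figure D2:**
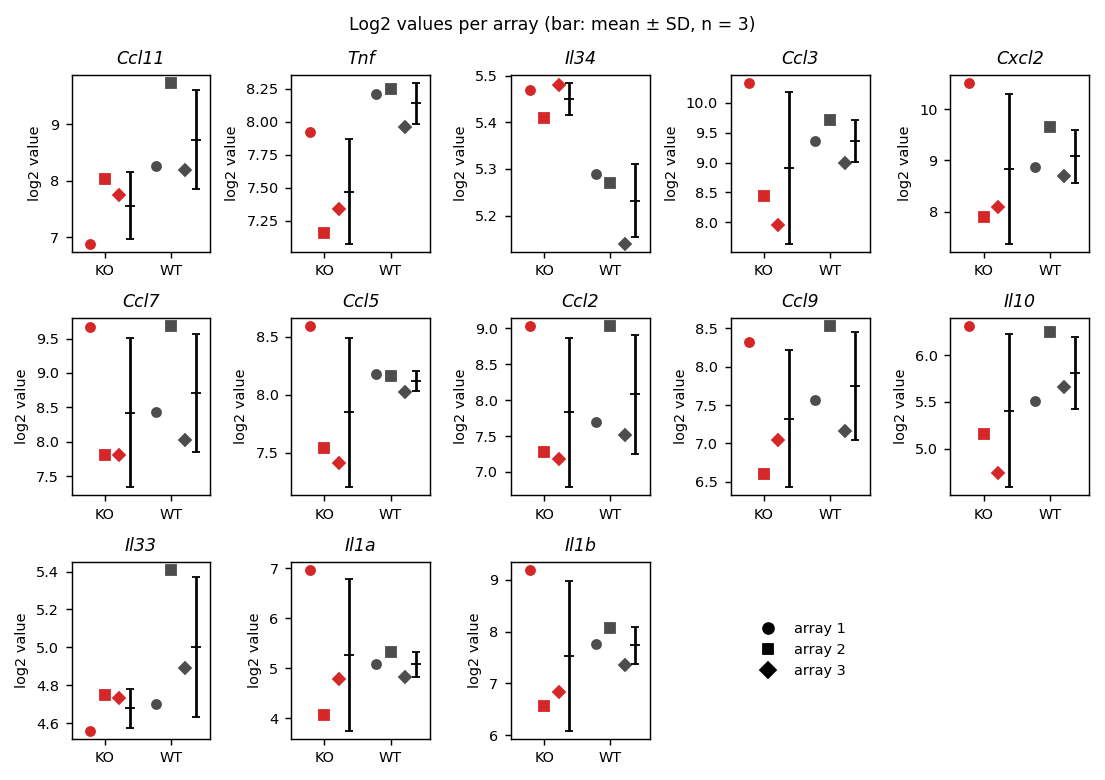
Log2 values on each array for the 13 members with the smallest p-values, separated groups, the brightest rows, the largest differences or the widest gap between knockout array 1 and the other knockout arrays. Knockout (KO, red) stands left of wild type (WT, grey), symbols give the array number, and bars give mean ± SD (n = 3). In Ccl3, Cxcl2, Il1a and Il1b, which were picked for that gap, the circle of knockout array 1 lies above all other points. Tnf, Ccl11 and Il34 have groups that do not overlap.

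Il1a, Cxcl2 and Il1b had the widest spread of the members among the knockout arrays (SD 1.52, 1.46 and 1.45, n = 3). Il1b, a fever-inducing cytokine released by activated macrophages, measured 9.20, 6.57 and 6.83 on the knockout arrays, against 7.77, 8.08 and 7.36 on the wild-type arrays. Il1a measured 6.97, 4.06 and 4.78 on the knockout arrays, against 5.08, 5.33 and 4.83 on the wild-type arrays. Knockout array 1 exceeded the mean of knockout arrays 2 and 3 by 2.50 for Il1b and by 2.55 for Il1a. The differences between groups were -0.20 (SE 0.64) and 0.19 (SE 0.66), and -1.04 (SE 0.22) and -0.66 (SE 0.24) without knockout array 1.

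Cxcl2, a neutrophil attractant that macrophages release early, measured 10.52, 7.89 and 8.10 on the knockout arrays, against 8.87, 9.66 and 8.70 on the wild-type arrays. Here too knockout arrays 2 and 3 lay below every wild-type array and knockout array 1 above every one. The difference was -0.24 (SE 0.67), and -1.08 (SE 0.28, limma adjusted p = 0.0824) without knockout array 1. Cxcl1, which epithelium and fibroblasts also make and whose start site holds the same number of matches as that of Cxcl2, measured 8.37, 7.83 and 7.58 on the knockout arrays, against 7.72, 8.32 and 7.34 on the wild-type arrays. It differed by 0.13 (SE 0.29), and -0.09 without knockout array 1. Cxcl5 and Cxcl15 had dim rows, with differences of 0.06 (SE 0.13) and 0.28 (SE 0.14).

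The genes whose start sites hold the NF-kB-type motif had no direction in common. The differences were 0.13 for Cxcl1 and 0.11 for Ccl20, and -0.24 for Cxcl2, -0.43 for Ccl9, -0.25 for Il6, -0.17 for Csf1 and -0.09 for Cxcl9. The 95% confidence interval of each included 0.

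Il10, which restrains inflammatory cytokine production, measured 6.31, 5.16 and 4.74 on the knockout arrays, against 5.51, 6.25 and 5.66 on the wild-type arrays. It was high on the same arrays as the inflammatory chemokines, with a difference of -0.40 (SE 0.40) and of -0.86 (SE 0.24, limma adjusted p = 0.0937) without knockout array 1. Without wild-type array 2 the Il10 difference was -0.18, and without knockout array 3 it was -0.07. Among the ligands of Cxcr3, Cxcl10 measured 7.31, 6.31 and 5.57 on the knockout arrays, against 6.63, 6.83 and 6.62 on the wild-type arrays. Cxcl10 differed by -0.30 (SE 0.39), Cxcl9 by -0.09 (SE 0.21) and the dim Cxcl11 row by 0.16 (SE 0.13). Without knockout array 1 the differences were -0.75 for Cxcl10 and -0.32 for Cxcl9. Of the chemokines of dendritic cells that bind Ccr4, Ccl22 differed by -0.22 (SE 0.35; -0.60 without knockout array 1) and Ccl17 by 0.14 (SE 0.13; 0.23 without that array).

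Apart from Ccl11, the largest difference in size among members that epithelium or stroma usually make was -0.32, for Il33. Of the 20 rows of these members, 15 lay below the median signal of all genes, where differences are compressed. Il34, a ligand of the macrophage growth factor receptor Csf1r, measured 5.47, 5.41 and 5.48 on the knockout arrays, against 5.29, 5.27 and 5.14 on the wild-type arrays. The groups did not overlap and the spread within each was narrow, but the row lay near the median signal of all genes (5.43). The difference was 0.22 (SE 0.11, 95% confidence interval -0.04 to 0.47, limma adjusted p = 0.907, exact permutation p = 0.1). Csf1, the other ligand of Csf1r, differed by -0.17 (SE 0.15).

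Il33, an alarmin of barrier and stromal cells, measured 4.56, 4.75 and 4.73 on the knockout arrays, against 4.70, 5.41 and 4.89 on the wild-type arrays. The difference, -0.32 (SE 0.19), was -0.12 without wild-type array 2. Il6, which fibroblasts and macrophages release in injury, measured 4.70, 4.68 and 4.39 on the knockout arrays, against 4.52, 5.77 and 4.22 on the wild-type arrays. The same wild-type array carried its difference of -0.25 (SE 0.37), which was 0.22 without that array.

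Cxcl12, the stromal chemokine that binds Cxcr4, ran the other way on knockout array 1, with 5.50, 6.27 and 6.64 on the knockout arrays, against 6.04, 6.08 and 5.90 on the wild-type arrays. It differed by 0.13 (SE 0.27), and 0.44 (SE 0.14, limma adjusted p = 0.109) without knockout array 1. The epithelial or stromal members not yet named had differences of at most 0.23 in size. They were Cxcl14 (0.15), Cxcl17 (0.18), the fractalkine gene Cx3cl1 (0.14), Ccl25 (0.10), Ccl28 (0.15), the IL-6 family cytokines Il11 (0.23) and Lif (0.01), Il18 (0.07), Csf3 (-0.06) and Tslp (-0.13), and the signs of Lif, Il18 and Cxcl5, and of no other member, turned under a further quantile normalization or a shift of the arrays to 1 median. Cxcl16, a scavenger-type chemokine of macrophages, differed by -0.14 (SE 0.31) and Csf2 by -0.06 (SE 0.27).

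**Figure D3:**
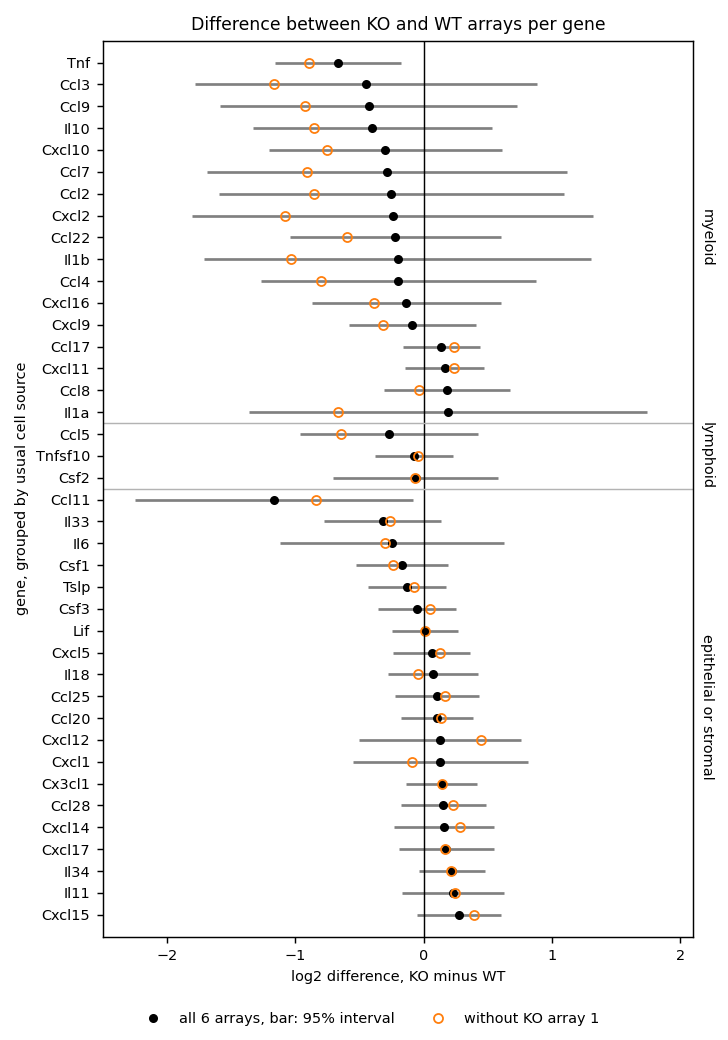
Knockout (KO) minus wild-type (WT) log2 difference of each of the 40 members (rows, grouped by usual cell source). Filled points and bars give the difference over all 6 arrays with its 95% confidence interval, and open points the difference without knockout array 1. Only the intervals of Tnf and Ccl11 lie wholly below 0, none lies wholly above it, and the open points of most myeloid-source genes lie further to the left.

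The members were also counted by usual cell source, assigned from general knowledge of these genes, and the difference between these source groups was not tested. Of the 17 measured myeloid-source members, 13 had a difference below 0, with a median of -0.22. Without wild-type array 2 it was 9 of 17, with a median of -0.03. Of the 20 epithelial or stromal members, 6 had a difference below 0, with a median of 0.10, and also 6 without wild-type array 2. Of the 3 lymphoid members, Ccl5, Csf2 and Tnfsf10, all were below 0, with a median of -0.08. That median is the value of the Tnfsf10 row used, and the dimmer Tnfsf10 rows lay above 0. After a further quantile normalization, or with the arrays shifted to 1 median, 9 of the 20 epithelial or stromal members were below 0 (medians 0.04 and 0.02), and the myeloid-source count stayed at 13 (medians -0.22 and -0.30). Over all genes the share below 0 was 38.3% and the median 0.05. Many epithelial or stromal rows were dim: 15 of 20 lay below the median signal of all genes, against 4 of 17 myeloid-source rows.

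The myeloid-source members were highest on knockout array 1 and lowest on knockout arrays 2 and 3. Their mean was 7.48, 6.17 and 6.11 on the knockout arrays and 6.71, 7.10 and 6.51 on the wild-type arrays. Knockout array 1 exceeded both other knockout arrays for 15 of 17 of these genes and was the highest of all arrays for 11. The epithelial or stromal members were even, with means of 4.99, 5.13 and 5.12 on the knockout arrays and 5.04, 5.26 and 4.96 on the wild-type arrays.

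Without knockout array 1 the count at an unadjusted p under 0.05 was larger, both among members and among all genes. Of the 40 members, 10 were lower, against 10.8% of all genes. They were Tnf, Ccl4, Ccl5, Ccl3, Il1b, Cxcl2, Il10, Cxcl10, Il1a and Cxcl9, of which 9 were myeloid-source. Another 2 of 40 were higher, Cxcl15 and Cxcl12, against 18.5% of all genes. The remaining knockout arrays lay below all wild-type arrays for 15 of 40 members, against 16.8% of all genes. They lay above them for 5 of 40, against 34.2% of all genes. Differences were below 0 for 25 of 40 members (background 34.7%), and the median over myeloid-source members was -0.80, against 0.11 over all genes. Still 0 members passed limma's adjusted threshold, with 0 of all genes higher (background 0%) and 2 lower (background 0.00987%).

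Macrophage and neutrophil markers moved with the myeloid-source members from array to array. Of 16 macrophage markers 14 were measured, and 11 of them had a mean difference below 0, with 0 at an unadjusted p under 0.05 and 0 with separate groups. Their median difference was -0.34, and it was -0.72 without knockout array 1 and 0.0071, with 7 of 14 below 0, when wild-type array 2 was left out. Their list mean was 7.48, 6.29 and 6.53 on the knockout arrays, against 6.83, 7.67 and 6.72 on the wild-type arrays, and their summed values ran from 88.1 to 105 and from 94.1 to 107. Cd68, a lysosomal protein of macrophages, measured 8.62, 7.06 and 7.19 on the knockout arrays, against 7.81, 8.81 and 7.79 on the wild-type arrays. The arrays that were high in Cd68 were those high in Ccl2 and Ccl7.

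Neutrophil markers (13 of 13 measured, 12 with a difference below 0) averaged 7.22, 5.64 and 5.70 on the knockout arrays and 6.46, 6.69 and 6.28 on the wild-type arrays, with sums of 73.4 to 93.9 and of 81.6 to 86.9. Their median difference was -0.21, and -0.90 without knockout array 1. T and NK cell markers (15 of 18 measured, 13 with a difference below 0) averaged 7.20, 6.64 and 6.52 on the knockout arrays and 7.24, 6.89 and 7.31 on the wild-type arrays, with sums of 97.8 to 108 and of 103 to 110. B and plasma cell markers (10 of 11 measured, 8 with a difference below 0) averaged 9.06, 7.77 and 7.80 on the knockout arrays and 8.55, 8.30 and 8.57 on the wild-type arrays. Without knockout array 1 the median difference was -0.69 for B and plasma cell markers, against -0.23 with it. For T and NK cell markers it was -0.56, against -0.37. Acinar markers (12 of 16 measured) ran the other way on knockout array 1, with 10.62, 11.34 and 11.34 on the knockout arrays, against 11.07, 11.15 and 11.16 on the wild-type arrays. Their median difference was -0.0088, and 0.20 without that array.

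With the macrophage mean of each array as a covariate, the median over myeloid-source members was 0.10, against -0.22 without it. Under that fit the differences were 0.31 for Cxcl2, 0.30 for Il1b, 0.24 for Ccl2, 0.23 for Ccl7 and -0.03 for Ccl3, all with a limma adjusted p of 0.999. Leukocyte markers such as Cd68 and Cd79a had bright rows in these GFP-gated cells. The covariate was added after the data were seen, and any list with the same pattern over so few arrays could shift these differences. The part of leukocyte content in the cytokine differences was not tested.

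**Figure D4:**
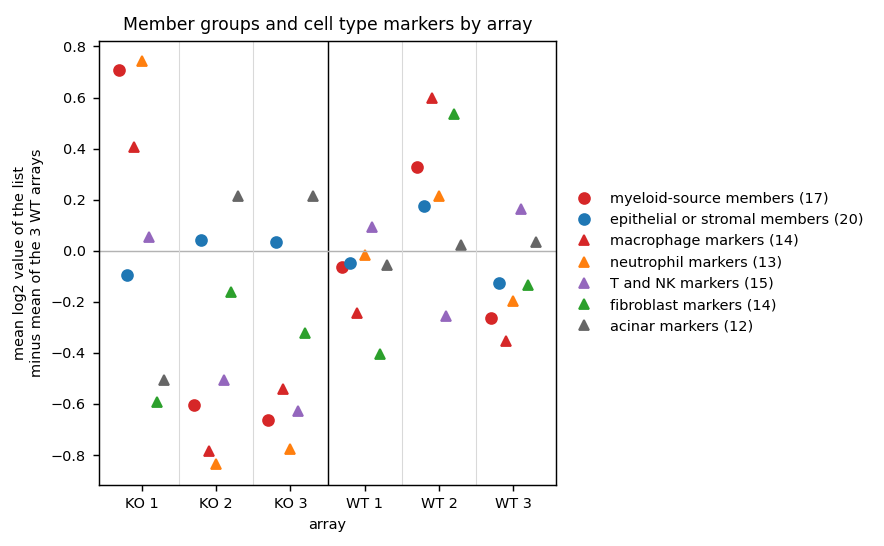
Mean log2 value of member groups (circles) and cell type marker lists (triangles) on each array, minus the mean of the 3 wild-type arrays, with knockout (KO) left of wild type (WT) and points set side by side within an array for legibility. Myeloid-source members lie on the same side of the zero line as the macrophage and neutrophil markers on each array, fibroblast markers are highest on wild-type array 2, and acinar markers are lowest on knockout array 1.

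The receptors of these ligands were also highest on average on knockout array 1. Of 40 receptors and decoys listed, 36 were measured, and 0 were called higher or lower by limma after adjustment. At an unadjusted p under 0.05 there were also 0. Their median difference was -0.09, with 23 below 0, and it was -0.34 without knockout array 1, while leaving out wild-type array 2 gave 0.02. Their mean level was 6.57 on knockout array 1 and 5.96 on knockout array 3, against 6.20 to 6.40 in wild type. The smallest p-values belonged to the Cxcl16 receptor Cxcr6 (-0.32, SE 0.16), Il7r of lymphocytes (-0.51, SE 0.26), the interleukin-1 co-receptor Il1rap (0.22, SE 0.12) and the interleukin-18 co-receptor Il18rap (-0.55, SE 0.34), all with a limma adjusted p of 0.907.

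Among 32 other chemokines and cytokines, of which 30 were measured, 0 passed after adjustment by limma, and at an unadjusted p under 0.05 there were 2 higher (background 2.31%) and 0 lower (background 1.19%). Il23a, the p19 subunit of interleukin-23, measured 4.56, 4.63 and 4.94 on the knockout arrays, against 4.41, 4.25 and 4.29 on the wild-type arrays (difference 0.40, SE 0.14). Il27 measured 5.93, 5.91 and 5.95 on the knockout arrays, against 5.70, 5.69 and 5.66 on the wild-type arrays (difference 0.25, SE 0.10). Both had groups that did not overlap, as had 6.21% of all genes in this direction, and a limma adjusted p of 0.907. The median of this list was 0.03, with 14 of 30 below 0, and it was -0.05 both after a further quantile normalization and with the arrays shifted to 1 median.

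Subunits and feedback regulators of NF-kB, 17 of 18 measured, had a median difference of -0.23 with 12 below 0, and 0 at an unadjusted p under 0.05. The median was -0.40 without knockout array 1, while leaving out wild-type array 2 gave -0.09. Tnfaip3, the A20 brake on NF-kB signalling, measured 9.53, 8.65 and 8.43 on the knockout arrays, against 9.52, 9.22 and 9.30 on the wild-type arrays (difference -0.48, SE 0.28). The adhesion molecule Icam1 differed by -0.37 (SE 0.25). The subunits Relb (0.37, SE 0.18) and Rela (0.18, SE 0.12) differed in the opposite direction, and none of these 4 passed in limma (adjusted p = 0.907 for each).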

How the data were processed

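The deposited table holds log2 values, made by the authors with RMA and Partek per the submitters' processing notes, for 115830 rows on 6 arrays. Tool versions, genome build, detection calls and scan dates are not given here, so batches could not be tested, and the number of arrays limits the precision. The platform annotation gave 1 symbol to 25539 rows, several to 2300, and 87991 had no name here. By gene number, 24941 of the named rows were found in RefSeq's table (GRCm38.p6). Knockout minus wild type was fitted over all 20259 genes in limma (version 3.58.1, R 4.3.3) by lmFit, then eBayes, without a filter, with Benjamini-Hochberg adjustment over all of them at 0.05. The fit was checked on simulated data. Single genes also had an exact two-sided permutation test. The members, gene lists and sources were chosen with earlier results of these data known. Values on every array are given for members at an unadjusted p under 0.05, with separate groups, among the 6 brightest rows or 6 largest differences, or among the 4 widest gaps of knockout array 1; pathway genes are those at an unadjusted p under 0.05 or else the 4 smallest p-values. Cxcl12, Cxcl1, Cxcl10, Il6, Ccl4 and the ranges of Tnfsf10 were added after their values were seen. The promoter motif was a longer form at first and was shortened after its matches had been seen, and an interferon-type and a TATA-type motif were also searched and are not reported. Deviations of same-numbered arrays from their group means correlated at 0.041, 0.138 and -0.153. So few arrays cannot show whether the numbers pair them, and the main fit used no pairing. Alternatives were other normalizations, row choices, filters, variance models, array weights, a block for replicate number and single arrays left out, and marker covariates were added after seeing the data.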

Additional observations from a re-analysis of the deposited data

How the results depend on the processing

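The count of called members was 0 in each direction in every alternative except array weights, which gave 8 members lower and 2 higher, against 1776 and 3021 of all genes. Array weights also gave 13 members lower and 7 higher at an unadjusted p under 0.05, and the estimate of the weights stopped before its convergence tolerance. Under them Tnf (-0.96, limma adjusted p = 0.0218), Ccl3 (-0.93), Cxcl2 (-1.13), Ccl5 (-0.57), Ccl9 (-1.09), Il10 (-0.66) and Il1b (-1.11) passed and Il1a turned to -0.92. The 13 members given by array had adjusted p-values that ran, over all alternatives, from 0.0218 to 1.00. The count at an unadjusted p under 0.05 was 1 lower after a further quantile normalization. With a macrophage covariate it was 1 lower, and with a fibroblast covariate 1 lower and 1 higher. The shares of all genes at this unadjusted threshold were not counted under array weights or in these fits. With a macrophage covariate the median over members was 0.062, and Cxcl2 (0.31), Ccl7 (0.23), Ccl2 (0.24), Ccl9 (0.0016) and Il1b (0.30) turned above 0. With a fibroblast covariate Il1a was -0.12. Among genes above the median signal the median over members was -0.23, and 0 members were higher with separate groups, since Il34 was not tested there. The cause of the other changes was not tested.

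Leaving out 1 array gave 0 to 2 genes called lower over the whole table, 1 to 10 members lower and 0 to 2 higher at an unadjusted p under 0.05, and 2 to 15 lower and 1 to 5 higher with separate groups. The upper ends came without knockout array 1, and 5 separate higher members were also found without wild-type array 1. For the member counts, the shares of all genes are given above for the fit without knockout array 1. They were not counted for the other fits, so these counts cannot be set against a background. The median over members ran from -0.088 to 0.070 in these fits, without wild-type array 3 and without knockout array 3. Differences ran from -0.66 to 0.79 for Il1a, from -1.08 to 0.23 for Cxcl2, from -0.91 to 0.20 for Ccl7, from -0.85 to 0.22 for Ccl2, from -1.04 to 0.28 for Il1b and from -1.17 to 0.031 for Ccl3. For Ccl9 they ran from -0.93 to -0.039. The differences kept their sign for Tnf (-0.89 to -0.51), Ccl11 (-1.44 to -0.66) and Il34 (0.17 to 0.25). So did those of Ccl9, Ccl5 (-0.64 to -0.056), Il10 (-0.86 to -0.068) and Il33 (-0.47 to -0.12), some of which came close to 0. A replicate block left 0 members called and 2 lower at an unadjusted p under 0.05, with Tnf at -0.67 and a limma adjusted p of 0.953, and changed no other call.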

Other observations

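Rows shared between neighbouring chemokine genes took no part in the comparisons. The row named for both Ccl6 and Ccl9 measured 8.12, 5.80 and 6.01 on the knockout arrays, against 6.66, 7.38 and 6.54 on the wild-type arrays, so that knockout array 1 was again the highest. The row named for both Cxcl3 and Cxcl15 measured 6.02, 4.60 and 4.88 on the knockout arrays, against 4.96, 4.95 and 4.82 on the wild-type arrays. The Cxcl15 row used above had its lowest knockout value on array 1 (4.23), and these data cannot assign the shared signal to either gene.

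A second row of Ccl17 measured 6.35, 5.47 and 5.31 on the knockout arrays, against 5.82, 5.36 and 5.19 on the wild-type arrays. It was highest on knockout array 1, while the row used for Ccl17 was lowest there among the knockout arrays, at 5.96 against 6.26 and 6.22. The differences over all arrays were 0.26 for this row and 0.14 for the row used.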
